A study of Mus musculus with 6 samples.

Results

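The flanks of the Rroid locus on mouse chromosome 12 were the 561 accessible regions (peaks), of 51775 in the deposited consensus table, that started below 46.28 Mb on chromosome 12, leaving out the 1 Mb from 25.28 to 26.28 Mb (mm9) that holds Id2. The left flank, at lower coordinates than the left-out 1 Mb, held 303 peaks and the right flank held 258. Membership depended on position and used no measured value. The assay was ATAC-seq, which uses a transposase to tag DNA that is open enough to be cut. The natural killer (NK) cells were sorted from the spleens of C57BL6 mice as CD3- CD5- NK1.1+ NKp46+ cells, and 50000 cells of each genotype were used. Both genotypes, wildtype and Rroid deficient, had 3 libraries. The labels do not say how the Rroid-deficient allele was made, the age of the mice, or whether replicate libraries were from different mice. The p-values therefore reflect the spread among these libraries alone, and part or all of it may be technical.

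NK cells are cytotoxic innate lymphocytes. Id2, an inhibitor of E-protein transcription factors, is required for their development, and the Rroid locus, close to Id2, gives a long noncoding RNA. A regulatory element acts mostly on genes of its own chromosome, often within the same folded domain, and so the peaks around a changed locus show how far along the chromosome differences extend. The comparison of the flanks asked that question. Peaks are named by the nearest gene of the deposited annotation, which is an assignment by distance.

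The libraries held 27572006 to 47939665 reads in peaks, and the median peak held 151 to 224 reads. Values are normalized reads per peak. Those of single libraries are given in the order 1, 2 and 3 for wildtype, then 4, 5 and 6 for Rroid deficient, and other values are mean ± SD with n = 3. A gene's promoter peak is here its strongest peak within 1000 bp of the start site, whatever the annotation calls it. Promoter peaks were present at 7 of 8 NK-cell marker genes, with summed values of 20968.8 to 24367.4 in wildtype and 16609.6 to 20197.2 in Rroid-deficient libraries. Of 8 T-cell markers, Cd3g and Cd5 had a promoter peak, and Cd3e, Cd3d, Cd4, Cd8a, Cd8b1 and Cd6 had none. The sum of those promoter peaks was 96.7 to 173.6 in wildtype and 432.3 to 516.2 in Rroid-deficient libraries. Both sums thus moved with genotype, the NK-cell sum down and the T-cell sum up, without overlap between the groups. The part of either in the results was not tested. The B-cell sum was 122.0 to 162.1 against 123.8 to 161.8.

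The promoters of 4 genes are shown so that the promoter of Rsad2, whose peak was called, can be set beside 3 whose peaks were not: that of its neighbour Cmpk2, and those of Adam17 and Ywhaq at the left flank's nearest stretch of falling peaks. Each is the 250 bases before the gene's start, 5′ to 3′ on the gene's strand, from RefSeq (GRCm38.p6, whose coordinates differ from the mm9 coordinates of the peaks). Capitals mark matches, on either strand, to the interferon-stimulated response element (GAAA, 2 bases of any kind, then GAAA) or to the E-box motifs CAGCTG and CAGGTG.
Adam17, chr12:21373633-21373882, minus strand: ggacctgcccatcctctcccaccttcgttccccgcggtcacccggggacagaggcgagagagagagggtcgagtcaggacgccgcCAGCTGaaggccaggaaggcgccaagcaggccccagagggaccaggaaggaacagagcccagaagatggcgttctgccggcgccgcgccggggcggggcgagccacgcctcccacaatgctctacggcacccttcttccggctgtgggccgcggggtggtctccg
Ywhaq, chr12:21417437-21417686, minus strand: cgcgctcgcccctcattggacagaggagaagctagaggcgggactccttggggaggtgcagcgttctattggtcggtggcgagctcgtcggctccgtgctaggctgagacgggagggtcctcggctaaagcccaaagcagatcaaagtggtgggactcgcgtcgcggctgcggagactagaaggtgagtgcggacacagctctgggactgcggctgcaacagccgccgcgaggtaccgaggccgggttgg
Rsad2, chr12:26456453-26456702, minus strand: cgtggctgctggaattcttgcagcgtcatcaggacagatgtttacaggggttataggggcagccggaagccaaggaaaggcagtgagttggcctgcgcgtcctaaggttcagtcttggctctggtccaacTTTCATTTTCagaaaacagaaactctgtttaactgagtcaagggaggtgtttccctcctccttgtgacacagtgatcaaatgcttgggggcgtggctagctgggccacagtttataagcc
Cmpk2, chr12:26468965-26469214, plus strand: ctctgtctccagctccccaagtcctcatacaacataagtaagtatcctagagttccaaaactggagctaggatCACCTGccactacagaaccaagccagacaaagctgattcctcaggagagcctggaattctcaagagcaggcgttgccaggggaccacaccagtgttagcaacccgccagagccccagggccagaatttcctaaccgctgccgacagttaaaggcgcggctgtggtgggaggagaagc
The response element occurred in 2.98% of 32851 mouse promoters of this length, CAGCTG in 13.0% and CAGGTG in 17.22%. Of the 4 promoters, Rsad2 held the response element, Adam17 held CAGCTG and Cmpk2 held CAGGTG on the opposite strand. Ywhaq held no match. A match describes the letters of the window and is not a measured binding site.

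Along the flanks as a whole, accessibility rose at some peaks and fell at others. Of the 561 peaks, 55 were higher and 89 lower in Rroid-deficient cells by limma with Benjamini-Hochberg adjustment over all 51775 peaks (adjusted p under 0.05). That is 25.7% of the flanking peaks, beside 25.8% of all peaks. By direction, 9.8% of flanking peaks rose and 15.9% fell, beside 13.8% and 12.1% of all peaks. With scaling to total reads in peaks, 63 flanking peaks rose and 67 fell, beside 15.9% and 9.55% of all peaks. The median log2 fold change (Rroid deficient over wildtype, on the log2 scale of the value plus 1) was -0.08 over the flanks and -0.01 over all peaks. Without Rroid-deficient libraries 4 and 6, the shallowest, library 5 was the only Rroid-deficient sample, the spread came from wildtype alone and library 5 was assumed to vary like it. In that fit 24 rose and 61 fell, beside 7.2% and 7.06% of all peaks. Leaving out wildtype library 2 or 3 gave 56 or 52 falling flanking peaks, beside 7.8% and 8.9% of all peaks, and leaving out library 6 gave 59, beside 8.06%.

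The left-out 1 Mb stood in contrast, with 35 of 62 peaks lower, 1 higher and a median of -0.56. Its values include 11 peaks, from chr12:26000744 to 26079794, whose Rroid-deficient mean was under 5% of wildtype. On chromosome 12 beyond 46.28 Mb, 230 of 1626 peaks were higher and 182 lower, with a median of 0.01. In the left flank 29 peaks rose and 42 fell (23.4% called), and in the right flank 26 rose and 47 fell (28.3%). The reads of the flanks made up 0.911%, 0.929% and 1.01% of the wildtype libraries' reads in peaks and 0.964%, 0.897% and 0.928% of the Rroid-deficient ones, and these ranges overlap. The library values of the genotypes did not overlap at 216 flanking peaks (38.5%), beside 40.1% of all peaks.

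**Figure D1:**
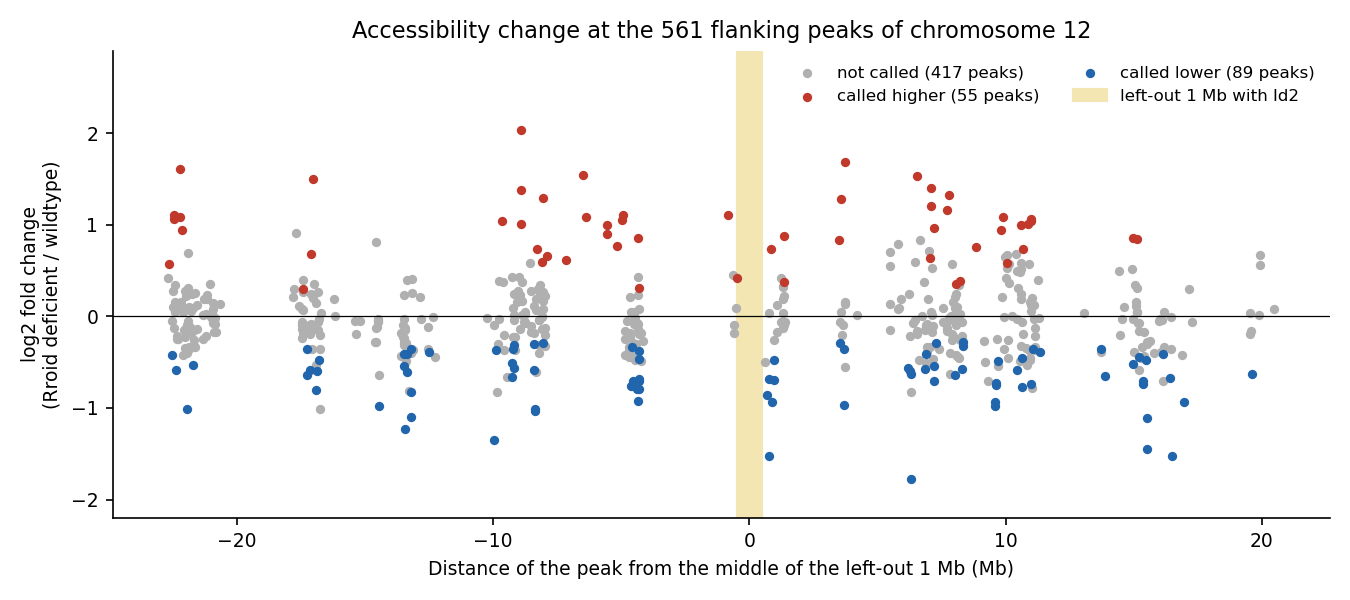
Each point is a flanking peak, placed by its distance in Mb from the middle of the left-out 1 Mb (negative to the left) and by its log2 fold change between Rroid-deficient and wildtype cells. The 55 peaks called higher and the 89 called lower are spread over both flanks, with falls grouped just right of the left-out band.

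The clearest difference beside the left-out 1 Mb lay in the first 0.5 Mb of the right flank, where all 10 peaks were intergenic. Of these peaks, 6 fell and 1 rose, beside 12.1% and 13.8% of all peaks, and the median log2 fold change was -0.59. The nearest gene of each was the transcript 4930480M12Rik. This stretch was singled out after its values were seen, although windows of 0.5 Mb had been listed as an alternative. Summed over the 10 peaks, the libraries held 3051.5, 3157.2 and 2892.1 in wildtype and 2074.0, 2082.8 and 2165.3 in Rroid-deficient cells. All wildtype sums lay above all Rroid-deficient sums, 3033.6 ± 133.5 against 2107.4 ± 50.4, or 69.5% of wildtype. As a 0.5 Mb window its log2 fold change was -0.52 (SE 0.08, limma, adjusted p = 0.00138 over 2789 windows), where 14.8% of all such windows were lower.

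The strongest fall in that stretch was at a weak peak, chr12:26564040-26564786. It read 96.2, 74.8 and 75.2 in wildtype and 30.5, 21.9 and 31.4 in Rroid-deficient libraries, a log2 fold change of -1.53 (SE 0.29, limma adjusted p = 0.000794). Every Rroid-deficient library was below every wildtype library there. The peak at chr12:26678645-26679521 read 403.4, 317.6 and 316.5 against 160.5, 166.6 and 215.2 (log2 fold change -0.94, limma adjusted p = 0.000446). The peak at chr12:26548822-26549845 read 382.9, 425.1 and 380.9 against 253.3, 243.7 and 241.8 (log2 fold change -0.68, limma adjusted p = 0.0011). The genotypes did not overlap at either peak.

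The nearest falling peak to the left-out 1 Mb, chr12:26468986-26469902, read 412.3, 389.0 and 282.3 against 191.0, 237.0 and 168.1 (log2 fold change -0.85, limma adjusted p = 0.00157), and -0.59 (adjusted p = 0.0936 by limma) with library 5 alone against wildtype. The largest peak of the stretch, chr12:26752778-26754006, read 1247.5, 1475.3 and 1284.4 against 877.9, 989.1 and 1010.7 (log2 fold change -0.48, limma adjusted p = 0.0026). Here too no library crossed between genotypes. The last falling peak, chr12:26756343-26756880, read 114.0, 141.1 and 160.2 against 84.9, 85.7 and 82.2 (log2 fold change -0.70, limma adjusted p = 0.0179) and ended 475.9 kb from the edge. From the end of the 11 left-out peaks under 5% of wildtype the distance was 677.1 kb.

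Another peak of the stretch, also intergenic, rose. At chr12:26642266-26644085 the values were 111.3, 106.7 and 137.7 in wildtype and 237.4, 163.7 and 198.3 in Rroid-deficient cells (log2 fold change 0.74, limma adjusted p = 0.00843). It stood between falling peaks on either side, and its call was lost without Rroid-deficient library 4. The number of falling peaks in the stretch stayed between 4 and 6 in every alternative run.

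In the next 0.5 Mb, from 26.78 to 27.28 Mb, 0 of 14 peaks fell and 2 rose by limma, beside 12.1% and 13.8% of all peaks. The summed values were 6018.0 ± 204.1 in wildtype and 6546.1 ± 196.8 in Rroid-deficient cells, or 108.8%, with an adjusted p of 0.159 by limma. Over the whole first Mb these stretches offset each other: the 24 peaks summed to 9052 ± 337.5 and 8653 ± 196.2, with a log2 fold change of -0.06 and an adjusted p of 0.439 by limma. No peak lay between 27.28 and 28.28 Mb, and the next falling peak on the right was at Rnaseh1, 3.05 Mb from the edge, a marginal call (limma adjusted p = 0.0492) lost in 9 of 16 alternatives.

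**Figure D2:**
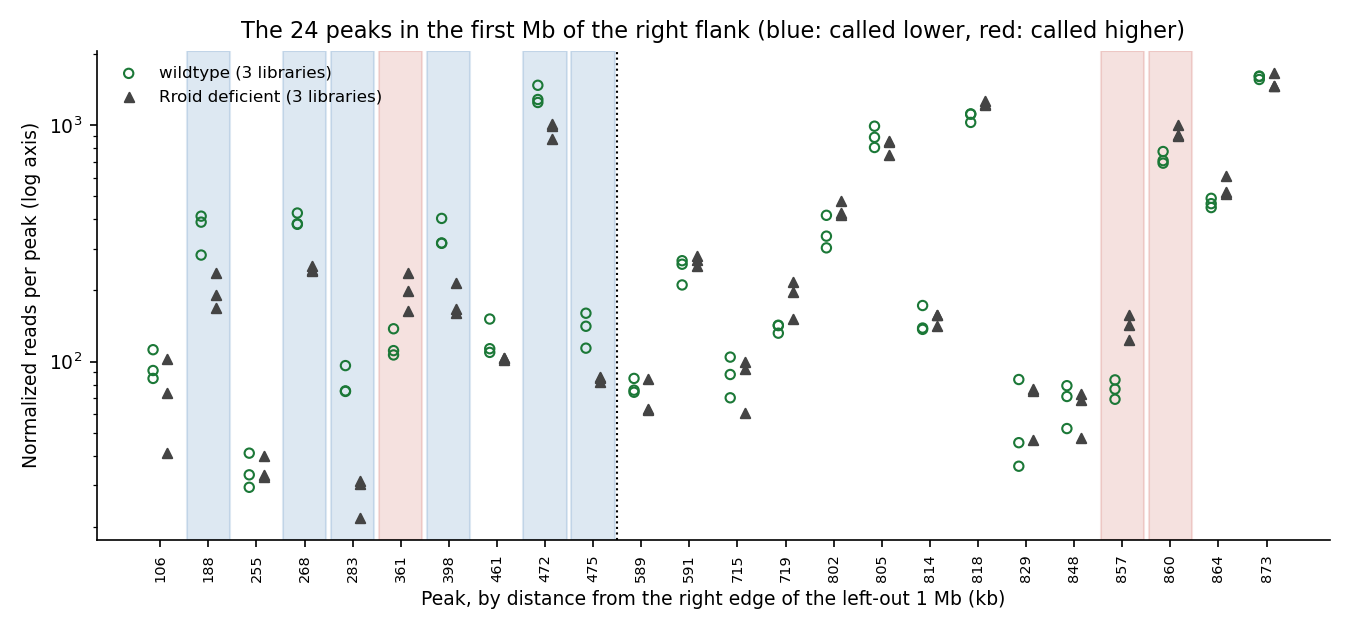
Normalized reads (log axis) in each library at the 24 peaks of the first Mb of the right flank, in order of distance in kb from the left-out 1 Mb, with the 0.5 Mb mark dotted. Blue bands mark the 6 peaks called lower, all before the mark, and red bands the 3 called higher, of which 2 lie at Rsad2.

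Both rising peaks past that mark belonged to Rsad2, which encodes the interferon-induced antiviral enzyme viperin. Its promoter peak, at the promoter whose sequence is given above, read 691.0, 773.8 and 708.1 in wildtype and 900.4, 1000.5 and 910.4 in Rroid-deficient libraries. The groups did not overlap, with a log2 fold change of 0.37 (SE 0.11, limma adjusted p = 0.015). An intronic Rsad2 peak read 83.7, 76.5 and 69.3 against 157.8, 123.8 and 142.7 (log2 fold change 0.87, limma adjusted p = 0.00421). Cmpk2, the adjacent interferon-induced nucleotide kinase gene, had a promoter peak of 1593.6 ± 28.5 and 1533.2 ± 112.4, whose libraries overlapped (limma adjusted p = 0.684). Of the 5 peaks of both genes, 2 rose and 0 fell, beside 13.8% and 12.1% of all peaks, and 5 peaks are few for such a comparison. With library 5 alone against wildtype the rises were 0.47 at the promoter and 0.69 in the intron, from a single Rroid-deficient library.

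Left of the left-out 1 Mb the first Mb held only 6 peaks, and none fell. The 2 called peaks rose, beside 13.8% rising and 12.1% falling of all peaks. At a Grhl1 intron, 3.2 kb from the edge, the values were 531.6, 598.2 and 643.7 against 745.3, 808.2 and 818.5 (log2 fold change 0.42, limma adjusted p = 0.0109). Grhl1 encodes a grainyhead-like transcription factor, and its promoter peak read 3782.1 ± 51.6 and 4017.3 ± 167.4 (limma adjusted p = 0.436). The weak peak near 9030624G23Rik read 52.5, 25.2 and 35.2 against 91.5, 73.3 and 72.5 (log2 fold change 1.11, limma adjusted p = 0.0114). With library 5 alone against wildtype the log2 fold changes were 0.45 and 1.01, neither called (limma adjusted p = 0.101 and 0.127). The Grhl1 call was also lost without library 6, and the other without wildtype library 2. Summed, the 6 peaks gave a log2 fold change of 0.12 (limma adjusted p = 0.212). Beyond them lay 3316.8 kb with no peak at all, and the nearest falling peak on the left was 3.8 Mb from the edge, near Ywhaq. It read 3246.6, 3822.6 and 3765.4 against 2811.4, 2877.7 and 2619.9 (log2 fold change -0.38, limma adjusted p = 0.00359) and, with library 5 alone against wildtype, -0.32 (limma adjusted p = 0.119).

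At the limits of the flanks, the last peak inside the left-out 1 Mb read 251.6 ± 29.3 against 205.3 ± 31.3, and the first peak of the right flank 96.3 ± 14.3 against 72.3 ± 30.6. On the left, the Grhl1 peak just inside the left-out 1 Mb read 257.6 ± 26.3 against 257.4 ± 36.3, beside the Grhl1 intron peak given above. At 46.28 Mb, the Stxbp6 peak just inside read 39.8 ± 5.5 against 49.8 ± 37.6 and the one just outside 47.6 ± 12.2 against 39.1 ± 24.5. Neither direction was called at these last 4 intergenic peaks or at the Grhl1 peak inside the left-out 1 Mb.

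Cut into windows of 1 Mb, the flanks held called windows at scattered distances from the left-out 1 Mb. Of 43 flank windows, 9 held no peak and 10 held 1 to 4, and the 24 with at least 5 peaks were tested. By limma on summed values, 4 were lower and 0 higher at an adjusted p under 0.05, beside 14.7% lower and 4.81% higher among all 1807 such windows of the genome. Among the flank windows with 1 to 4 peaks, which were not tested, all 4 peaks of the window from 19.28 Mb rose. So did the 1 peak of the window from 18.28 Mb, and 1 peak each in the windows from 2.28, 28.28 and 34.28 Mb. The window from 19.28 Mb summed to 387, 376 and 397 in wildtype and 1212, 417 and 1001 in Rroid-deficient libraries, so library 5 stayed near wildtype. The only fall among those untested windows was 1 peak in the window from 2.28 Mb. With scaling to total reads in peaks 0 flank windows were lower, beside 4.59% of all windows. The left-out window itself, with its 11 peaks under 5% of wildtype included, had a log2 fold change of -0.52 (adjusted p = 0.000714 by limma).

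The 4 falling windows lay 3, 4, 12 and 16 Mb from the edges. The window from 12.28 Mb, from Fam49a to Nbas, summed to 7849 ± 422.7 and 6180 ± 189.9 (log2 fold change -0.34, limma adjusted p = 0.00503), and 9 of its 28 peaks fell, at 4921511I17Rik, Fam49a and Nbas. Its peaks at Mycn and Ddx1 were not called. The windows from 20.28 and 21.28 Mb had log2 fold changes of -0.23 and -0.18, each with a limma adjusted p of 0.0338. In the window from 20.28 Mb calls were balanced, with 3 of 22 peaks higher and 3 lower. Its sum went from 12706 ± 1039.6 to 10829 ± 472.4, and 1 strong peak, assigned to Itgb1bp1, went from 3514.9 to 2148.5. In the window from 21.28 Mb, 7 of 23 peaks fell and 2 rose. The window from 42.28 Mb held only 5 peaks, around Lrrn3, and summed to 748 ± 131.4 and 438 ± 72.9 (log2 fold change -0.77, limma adjusted p = 0.0347). Leaving out single libraries left 1 to 9 flank windows called lower, beside 5.26% to 20% of all windows. There was 1 each without wildtype library 2, wildtype library 3 or library 6, beside 9.68%, 10.8% and 5.26% of all windows. Among the 18 flank windows with at least 10 peaks, the median log2 fold change per window ran from -0.33 to 0.05. All 18 lay inside the 2.5 to 97.5 percentiles of the genome's windows, -0.47 to 0.44, whereas the left-out window ranked 26 from the lowest of 1532. The lowest flank medians were those from 12.28, 41.28 and 20.28 Mb, and the highest those from 3.28, 31.28 and 16.28 Mb.

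**Figure D3:**
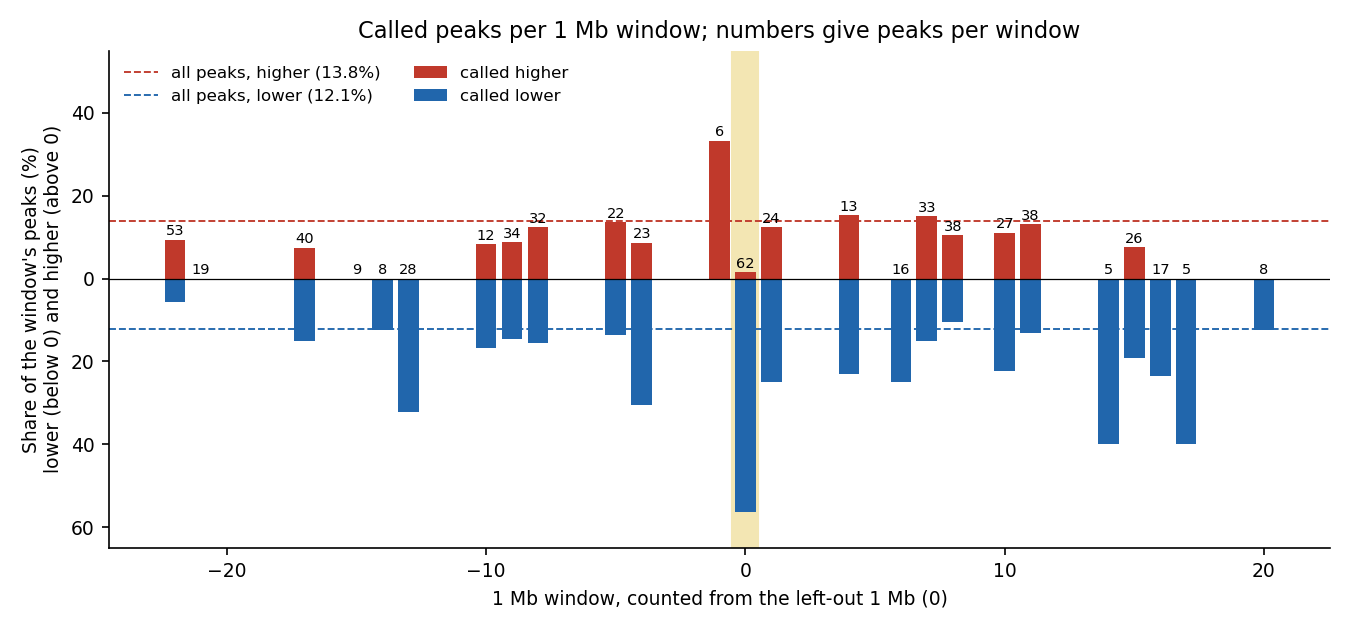
Share of peaks called higher (upward bars) and lower (downward bars) in each 1 Mb window with at least 5 peaks, by window number counted from the left-out 1 Mb at 0. Dashed lines give the shares over all peaks, 13.8% and 12.1%, and the left-out window has the longest downward bar and the 6-peak window on its left the tallest upward bar.

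By distance class, rises and falls were mixed. The share called in the left flank was 33.3% within 1 Mb (of 6 peaks), 33.3% at 2 to 5 Mb and 30.1% at 5 to 10 Mb. Farther left it was 21.3% at 10 to 15 Mb, 19.6% at 15 to 20 Mb and 13.2% at 20 to 30 Mb. The right flank had 37.5% within 1 Mb (of 24 peaks) and again at 2 to 5 Mb (of 16 peaks). It had 27.1% at 5 to 10 Mb and at 10 to 15 Mb, and 23.3% at 15 to 20 Mb. Shares were lower in the farther classes, beside 25.8% of all peaks, but the nearest classes are small and a trend was not tested. Calls also differ with peak level: 35.8% of flanking peaks at or above the median level were called, and 18.1% below it. The median wildtype value differed between classes, from 138.4 to 363.9 on the left and from 102.3 to 203.3 on the right. On the left, 10 of 45 peaks at 2 to 5 Mb fell and 5 rose, 12 of 83 fell and 13 rose at 5 to 10 Mb, and 10 of 47 fell and 0 rose at 10 to 15 Mb. On the right, 19 of 118 fell and 13 rose at 5 to 10 Mb, and 7 of 30 fell and 0 rose at 15 to 20 Mb. Medians ranged from -0.27 in that last class to 0.25 in the 6 peaks next to the left edge. Across adjacent peaks, which share libraries and are not independent, Pearson's r of log2 fold changes was 0.284 in the flanks (559 pairs) and 0.38 on other chromosomes (49507 pairs). In pairs less than 10 kb apart it was 0.288 (219 pairs) against 0.451, and in the most widely spaced class (34 pairs) 0.386 against 0.124 in that class elsewhere.

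Called neighbours formed 7 runs of at least 3 adjacent peaks in one direction, holding 28 peaks or 4.99% of the flanks, beside 6.8% of all peaks. The longest had 9 rising peaks over 2957.8 kb, from Hpcal1 to the transcripts 5730507C01Rik and 1700030C10Rik. At the 1700030C10Rik start site the values were 212.0 ± 42.1 against 445.6 ± 117.0, with wildtype libraries at most 258.8 and Rroid-deficient libraries at least 310.7 (log2 fold change 1.05, limma adjusted p = 0.000638). At chr12:20233000-20234694, in the same run, libraries 4 and 6 were high at 347.4 and 293.8 while library 5, at 112.3, lay within the wildtype values of 106.9, 127.7 and 128.9. Of the 11 peaks nearest to these transcripts 8 rose, with a median of 0.90, and the groups overlapped at 2 of the 8.

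Falling runs stood at 4921511I17Rik, Ywhaq, Hdac9, at Dld and Slc26a3, and within the Nol10 introns that the annotation assigns to Mir3066. Ywhaq encodes a 14-3-3 signalling adaptor. Of its 18 peaks 7 fell and 2 rose. Its promoter peak, whose sequence is given above, read 9613.9 ± 535.9 and 8749.0 ± 93.3 (limma adjusted p = 0.169). Upstream, chr12:21481818-21482926 read 1486.1, 1513.9 and 1405.5 against 790.4, 885.3 and 860.8 (log2 fold change -0.80, limma adjusted p = 1.35e-05). The falls lay in introns or upstream, and the promoter was not called. Adam17, which encodes the protease that sheds TNF and CD16, had 1 peak, at its promoter, and it was not called.

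Genes of signalling, adhesion and the cytoskeleton held 119 flanking peaks, of which 15 rose and 20 fell (12.6% and 16.8%, beside 13.8% and 12.1% of all peaks), with a median of -0.10 beside -0.01. Hpcal1, a neuronal calcium sensor gene, had an intronic peak of 545.0, 468.8 and 481.5 against 1193.5, 1268.0 and 1211.4 (log2 fold change 1.30, limma adjusted p = 1.98e-07). Pik3cg encodes the gamma catalytic subunit of PI3-kinase in leukocytes. Its intronic peak rose from 195.0, 195.8 and 221.7 to 529.1, 470.3 and 420.7 (log2 fold change 1.21, limma adjusted p = 9.24e-06). A peak upstream of it, chr12:32976710-32978194, fell from 1351.7, 1749.2 and 1825.5 to 984.0, 972.9 and 1049.4 (log2 fold change -0.70, limma adjusted p = 0.000198). Peaks assigned to the same gene thus moved in opposite directions. An intronic peak of Trib2, a pseudokinase gene, fell from 470.2, 392.3 and 371.2 to 152.5, 185.6 and 145.1 (log2 fold change -1.35, limma adjusted p = 8.24e-06).

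**Figure D4:**
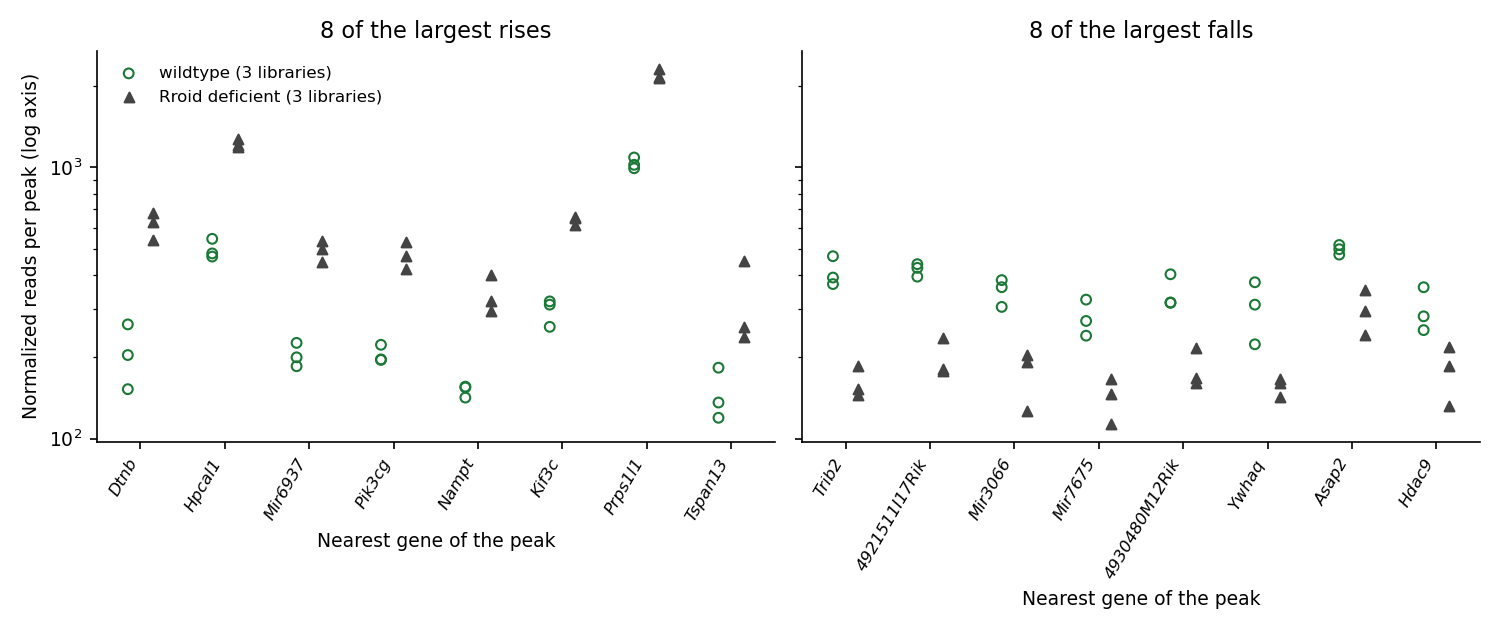
Normalized reads per peak (log axis) in each wildtype (circles) and Rroid-deficient (triangles) library at 8 of the largest rises and 8 of the largest falls among called flanking peaks at or above the median level, 1 per nearest gene. The genotypes do not overlap at any of these peaks, which were chosen partly for that.

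Chromatin regulators held 37 peaks, of which 1 rose and 6 fell (median -0.22), so 18.9% were called, beside 25.8% of all peaks. By direction these were 2.7% and 16.2%, beside 13.8% and 12.1% of all peaks. Hdac9, a class II histone deacetylase gene, had 12 peaks, of which 5 fell and 1 rose. Its intronic peak chr12:35349506-35350168 read 132.7, 153.7 and 178.7 against 80.9, 74.3 and 78.6 (log2 fold change -0.97, limma adjusted p = 0.00162). An intronic peak of Dnmt3a, a de novo DNA methyltransferase gene, read 165.6, 158.8 and 144.6 against 88.8, 66.6 and 76.2 (log2 fold change -1.02, limma adjusted p = 0.00119). The genotypes did not overlap at either site. The Dnmt3a peak at the start site read 1881.0 ± 117.1 and 2197 ± 214.4 (limma adjusted p = 0.0936). The promoter peaks of Asxl2, Ncoa1 and Atad2b were not called.

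Transcription factor genes held 30 peaks, of which 2 rose and 7 fell (median -0.10). These were 6.67% and 23.3%, beside 13.8% and 12.1% of all peaks. Zfp277, a zinc-finger gene, carried a strong intronic peak of 2367.7, 2176.0 and 2100.0 against 1354.0, 1295.6 and 1326.3 (log2 fold change -0.74, limma adjusted p = 1.18e-05). The promoter peak of Etv1, an ETS-family factor, read 1781.8, 1884.4 and 2246.5 against 1677.5, 1405.1 and 1523.4 (log2 fold change -0.36, limma adjusted p = 0.0176). The genotypes were apart at both, but the Etv1 call was lost with loess scaling and without wildtype library 3 or library 5 or 6. Ahr, the aryl hydrocarbon receptor gene, had a promoter peak of 1428.3 ± 116.1 and a limma adjusted p of 0.845.

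Metabolic genes held 38 peaks, of which 2 rose and 7 fell (median -0.06), so 23.7% were called, beside 25.8% of all peaks. By direction these were 5.26% and 18.4%, beside 13.8% and 12.1% of all peaks. Lpin1, a phosphatidate phosphatase gene, had 5 of 13 peaks lower. Its peak at chr12:16532579-16533764 read 1516.4, 1870.2 and 1977.9 against 1062.2, 1195.6 and 1114.7 (log2 fold change -0.66, limma adjusted p = 0.000217). Upstream of Nampt, the NAD-salvage enzyme gene, a peak rose from 141.6, 155.4 and 154.3 to 401.8, 294.1 and 321.6 (log2 fold change 1.16, limma adjusted p = 4.82e-05). The Nampt promoter peak was not called (limma adjusted p = 0.238). Genes of RNA handling, DNA repair and cell division held 19 peaks, of which 1 rose and 3 fell (median -0.11), or 21.1% called. Of these peaks 5.26% rose and 15.8% fell.

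Genes known mainly from other tissues held 45 peaks, of which 3 rose and 4 fell (median -0.06), so 15.6% were called, beside 25.8% of all peaks. By direction these were 6.67% and 8.89%, beside 13.8% and 12.1% of all peaks. The deepest fall of the flanks was near Slc26a3, an intestinal chloride exchanger gene, at 138.0, 262.1 and 245.2 against 75.6, 43.8 and 64.1 (log2 fold change -1.78, limma adjusted p = 7.89e-05). An intronic peak assigned to Lrrn3, a leucine-rich repeat gene, read 216.4, 247.8 and 275.4 against 87.5, 70.4 and 99.1 (log2 fold change -1.52, limma adjusted p = 1.72e-05). Neither site had a library that crossed between genotypes.

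Large rises were also measured far from the left-out 1 Mb. Near Dtnb, a dystrobrevin gene with 3 of 8 peaks higher, a peak read 263.6, 152.1 and 203.2 against 629.9, 680.6 and 541.6 (log2 fold change 1.61, limma adjusted p = 3.72e-06). Near Prps1l1 a stronger peak read 1087.2, 992.2 and 1021.7 against 2314.1, 2126.6 and 2156.9 (log2 fold change 1.09, limma adjusted p = 2.27e-07). Each Rroid-deficient library stood above each wildtype library at both. A peak near Mir6937 read 225.3, 184.8 and 199.3 against 537.1, 449.3 and 499.3 (log2 fold change 1.28, limma adjusted p = 4.49e-06), and a peak near Kif3c, a kinesin gene, had a log2 fold change of 1.11. Among falls, an intronic Tspan13 peak read 1006.2, 1056.1 and 1128.1 against 596.8, 598.8 and 718.2 (log2 fold change -0.74, limma adjusted p = 9.96e-05). A peak assigned to Itgb1bp1, whose product binds the integrin beta-1 tail, read 3245.7, 3664.7 and 3634.5 against 2062.1, 2276.1 and 2107.3 (log2 fold change -0.71, limma adjusted p = 1.15e-05). The genotypes were again apart. Of all 144 called flanking peaks, 139 had libraries that did not overlap between genotypes, 27 rose at least 2-fold and 11 fell at least 2-fold (96.5%, 18.8% and 7.64%). Of the called peaks of the whole table the shares were 96%, 19.7% and 7.4%.

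By genomic class, among the 45 flanking peaks that the deposited annotation itself calls promoter 1 rose and 4 fell, beside 9.94% rising and 8.8% falling of all promoter peaks. Intergenic peaks had 36 rises and 38 falls of 235, beside 14.4% and 13.6% of all intergenic peaks. Intronic peaks had 15 rises and 43 falls of 241, beside 14.5% rising and 12.7% falling of all intronic peaks. Peaks at or above the genome's median level included 24 rises and 62 falls of 240, beside 12.8% and 17.5% of all such peaks. No test of these shares was made. Over the 140 nearest genes, 34 had falling peaks only, 23 rising only, 12 both and 71 neither. The matching counts over the nearest genes of all peaks are not given here. Whether these gene counts are usual therefore cannot be told.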

How the data were processed

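ATAC-seq libraries of sorted spleen NK cells, 3 per genotype, were compared. The deposited signal values are normalized reads per consensus peak and library; within 0.01, 100.0% came out as whole reads times 1 factor per library. Per the submitters' processing notes the authors worked in mm9 with HOMER, DiffBind, MACS2 2.1.0, BWA, Trimmomatic 0.32, bcl2fastq 2.16.0 and R 3.1.1; the steps these did, any read shifting and any duplicate removal are not given in the sources used here. Wildtype columns end in 1 to 3 and Rroid-deficient columns in 4 to 6, which match no sample title, so columns were unpaired replicates; 0 value columns were left unmapped.

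Because the values were normalized signal, limma 3.58.1 (R 4.3.3) with an intensity trend was fitted to log2 of the value plus 1 over all 51775 peaks, with Benjamini-Hochberg adjustment and calls at an adjusted p under 0.05. This scale understates changes of low peaks. Peaks were also summed in 1 Mb windows of at least 5 peaks, a peak belonging to the window of its start, and fitted alike. On simulated data for the peaks, changes of 1.5-fold were recovered at 40.3%, 2-fold at 62.7% and 4-fold at 98.5%, with 6 false calls. For 1807 windows, 90.0% of 1.2-fold changes were recovered, with 0 false calls. Only 66 or 67 peaks and 20 windows were changed per fold, whereas 13383 peaks were called in the data. The simulated rates therefore do not give the recovery or the false calls of the real fit.

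Named peaks were the extremes of log2 fold change (12 each way) of called, non-overlapping peaks at or above the median level (1 per nearest gene), the 3 called peaks nearest each edge, the 5 genes with most calls per direction, called and promoter peaks of 7 gene lists, and the peaks at each limit. The other peaks of the first right 0.5 Mb and the peaks at chr12:20233000-20234694 and chr12:21481818-21482926 were picked with their values in view. The flanks and lists were chosen with earlier results of these data known. Some peaks that the rule names are not reported here. Of 140 nearest genes, 113 had a promoter in the RefSeq table. Alternatives were edgeR 4.0.16 and DESeq2 1.42.0 on the recovered reads, other scalings, pseudocounts, filters, thresholds, window definitions and left-out libraries.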

Additional observations from a re-analysis of the deposited data

How the results depend on the processing

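Of 75 named peaks, 60 could be run in all 16 alternatives, and 35 of these stayed on their side of the threshold, in direction too; the other 15, below the median level, were run in 15, and 8 stayed. Here edgeR and DESeq2 on the recovered reads changed none. The filter on values of 10 removed no peak. Leaving out libraries 4 and 6 and the stretch within 0.5 Mb were chosen after seeing the data; the former leaves 1 Rroid-deficient library, assumed to vary like wildtype. Counts are for both flanks, left, right. Rises were 55, 29 and 26; among upper-level peaks 26, 16 and 10; without Rroid-deficient libraries 4 and 6, 24, 15 and 9; at an adjusted p limit of 0.01, 36, 19 and 17. Falls were 89, 42 and 47; at 0.01, 46, 23 and 23; on the right 29 among upper-level peaks. Leaving out 1 library gave 52 to 100, 27 to 47 and 25 to 53 falls, beside 7.8% to 12.2% of all peaks. Of all upper-level peaks 13.2% rose and 18.2% fell, beside 13.8% and 12.1% of all peaks in the main fit, and the flanks held 240 upper-level peaks. The shares of all peaks at a limit of 0.01 are not given here. Within 1 Mb on the right, rises went from 3 to 1 among upper-level peaks, 0 without libraries 4 and 6 and 5 at a limit of 0.1; within 0.5 Mb, from 1 to 0 among upper-level peaks, 0 without libraries 4 and 6 and 0 to 1 with 1 library left out. Falling windows went from 4 to 1 at 0.01 and 8 at 0.1, whose shares over all windows are not given here. They numbered 0 with total reads, 2 with loess, 2 at 2 Mb, 0 for mean log2 values and 7 for distal peaks. In that order 4.59%, 6.14%, 11.7%, 5.48% and 21.5% of all windows fell, beside 14.7% in the main fit. With 1 library left out 1 to 9 flank windows fell, beside 5.26% to 20% of all windows. Rising windows went from 0 to 1 with the shifted grid, mean log2 values and distal peaks, beside 4.59%, 8.91% and 10.4% of all windows. Uncalled peaks near 0 changed sign. With total reads, Smc6 was at 0.02, Odc1 0.02, Cmpk2 0, Ahr 0.03 and Arl4a 0.03; with loess, Atad2b 0.01, Rhob 0.02, Smc6 0.06, Odc1 0.08, Cmpk2 0, Rps7 0, Ahr 0.02, Arl4a 0.09 and Stxbp6 -0.12; without libraries 4 and 6, Cmpk2 0.06, Rps7 0.02, Ahr 0.10 and Stxbp6 -0.71. With 1 library left out, Smc6 ran from -0.07 to 0, Odc1 from -0.09 to 0.02, Cpsf3 from -0.02 to 0.05, Ahr from -0.10 to 0.04, Arl4a from -0.08 to 0.01 and Stxbp6 from -0.49 to 0.47. The causes were not tested. No paired analysis was possible because the Rroid-deficient columns carry numbers that match no replicate number in the labels, so the replicate block was not run. Depth limits weak peaks: a peak at the median holds 151 to 224 reads per library.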
